A study of Mus musculus with 18 samples.

Results

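The genes described here are the Trem receptor family and the adaptors that its receptors signal through, 8 genes taken by symbol from a table of 18668 gene symbols. They are the receptor genes Treml4, Trem1, Trem2, Trem3, Treml1 and Treml2 and the adaptor genes Tyrobp, which encodes DAP12, and Hcst, which encodes DAP10. All 8 were in the table and all 8 passed the filter on low values, which 12838 genes passed. They were chosen by name and family, not by their values.

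The study grew macrophages from mouse bone marrow (BMDM) to ask what loss of Treml4 does to cells loaded with oxidized low-density lipoprotein (oxLDL), the particle that turns macrophages of an arterial plaque into foam cells. All mice were C57BL6 and lacked Apoe, the apolipoprotein E gene, so there was no group with intact Apoe. One genotype was Apoe-/- and the other was Apoe-/-/Treml4-/-, a double knockout called DKO here. After 7 days of differentiation with M-CSF the cells of each genotype received PBS for 16 h (untreated), oxLDL at 10 μg/ml (oxLDL 10) or oxLDL at 60 μg/ml (oxLDL 60), which gave 6 groups of 3 libraries. The Treml4-/- line came from another laboratory and was crossed to Apoe-/- mice. The age of the marrow donors, and whether libraries that share a replicate number share a mouse, are not given in the sources used here. The study's main methods give a longer exposure than the series record, and the treatment text of the labels names lipopolysaccharide in place of oxLDL. Where nothing else is said, p-values measure the spread between these cultures.

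Receptors of the Trem family carry a single immunoglobulin-like domain, and most of them have no signalling motif of their own. Trem1, Trem2, Trem3 and Treml4 couple to DAP12, whose phosphorylated ITAM recruits the kinase Syk, while DAP10 recruits phosphatidylinositol 3-kinase and can join Trem2 complexes through DAP12. Trem1 and Trem3 amplify inflammatory signals, Trem2 binds lipids and lipoproteins and marks lipid-laden macrophages, and Treml4 has been tied to Toll-like receptor 7 signalling and to the binding of dying cells. Treml1 differs in carrying an inhibitory motif and is best known from platelets, and Treml2 signals without DAP12.

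The 6 receptor genes lie in a cluster on mouse chromosome 17, with B430306N03Rik between Treml2 and Trem2. All 6 are read from the plus strand (GRCm38, GENCODE M21). Trem1 spans chr17:48232768-48246924, Trem3 chr17:48247777-48258841, Treml4 chr17:48264295-48275360, Treml2 chr17:48299498-48312533, Trem2 chr17:48346401-48354147 and Treml1 chr17:48359916-48367176, so the whole cluster measures 134 kb. The adaptors form a pair on chromosome 7, with Tyrobp at chr7:30413760-30417585 on the plus strand and Hcst at chr7:30417712-30419854 on the minus strand. Their 3′ ends face each other 129 bases apart in RefSeq. The libraries were stranded per the labels, while the strand setting used in counting is not given in the sources used here.

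RefSeq promoter entries (GRCm38.p6) matched 5 of the 8 genes, and those of Treml4, Trem2 and Trem1 are printed because these are the receptors with an entry whose oxLDL response passed the test in at least 1 genotype. Each run holds the 250 bases before the start that the RefSeq promoter table uses, on the plus strand, 5′ to 3′. That start is the GENCODE start given above for Treml4 and Trem2 and lies upstream of it for Trem1. The RefSeq gene spans begin earlier, at chr17:48264200 for Treml4 and chr17:48232713 for Trem1, inside the printed runs. The runs are at chr17:48264045-48264294 for Treml4, chr17:48346151-48346400 for Trem2 and chr17:48232489-48232738 for Trem1. Capitals mark matches on either strand to GAGGAA, the core bound by the myeloid factor PU.1, or to TGANTCA, the AP-1 site.
Treml4: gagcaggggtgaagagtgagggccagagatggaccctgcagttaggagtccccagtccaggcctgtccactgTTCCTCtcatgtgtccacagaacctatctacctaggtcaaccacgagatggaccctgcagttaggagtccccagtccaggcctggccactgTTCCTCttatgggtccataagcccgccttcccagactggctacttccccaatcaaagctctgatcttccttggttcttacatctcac
Trem2: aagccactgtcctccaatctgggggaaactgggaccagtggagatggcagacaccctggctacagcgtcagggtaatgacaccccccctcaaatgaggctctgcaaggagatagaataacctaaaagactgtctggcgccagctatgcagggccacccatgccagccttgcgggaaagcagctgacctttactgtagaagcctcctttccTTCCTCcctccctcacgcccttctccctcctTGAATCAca
Trem1: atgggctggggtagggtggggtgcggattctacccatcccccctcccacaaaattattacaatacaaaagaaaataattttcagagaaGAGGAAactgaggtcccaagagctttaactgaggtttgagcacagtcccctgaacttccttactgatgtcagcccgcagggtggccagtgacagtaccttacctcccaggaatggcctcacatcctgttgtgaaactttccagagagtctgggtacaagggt

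Treml4 held 2 matches to GAGGAA, beginning 178 and 87 bases before the end of the run, Trem2 held 1 at 40 bases and Trem1 held 1 at 162 bases. Trem2 also held a match to TGANTCA at 9 bases before the end, which did not overlap the other match. Of 32851 promoters of the same length, 23.3% held GAGGAA and 6.75% held TGANTCA. The Treml4 sequence contains a direct repeat of 40 bases whose copies begin 225 and 134 bases before the end of the run, 91 bases apart, and each copy is followed by 1 of the GAGGAA matches. An exact repeat of at least that length was present in 82 of the 32851 promoters (0.250%). These matches describe letters and are no record of binding.

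The values are RPKM, a read count scaled to the length of the transcript and to the mapped reads of the library, which allow levels to be compared between genes of different length. Library depth, recovered from the step that 1 read makes in a gene's RPKM, was about 39700000 to 54200000 reads. All 10 macrophage markers were tested, among them Csf1r and Cd68, and their summed level was 5719 to 12211 RPKM, led by Lyz2 at 3970 to 9911 RPKM. In Apoe-/- the sum was 9146 to 12034 RPKM untreated and 6702 to 8684 RPKM with oxLDL 60, and in DKO 8592 to 11202 and 5719 to 7328 RPKM. With oxLDL 60, 1 marker passed the test used below as higher and 5 as lower in Apoe-/-, and 1 and 4 in DKO. Of all genes 13.9% and 12.2% passed in either direction. Markers of dendritic cells summed to at most 0.372 RPKM and those of B cells to at most 0.0721 RPKM. Megakaryocyte and platelet markers, the cells in which Treml1 is best known, summed to at most 3.21 RPKM, and Gp1bb, Gp5 and Gp6 of that list never reached 0.1 RPKM. T and NK cell markers reached 0.976 RPKM and erythroid markers 0.195 RPKM. Neutrophil markers, 9 of 10 of them tested and led by S100a9, summed to 45.7 to 97.7 RPKM, osteoclast markers to 9.17 to 24.8 RPKM and fibroblast markers to 0.617 to 15.1 RPKM. Xist transcripts were present in 6 libraries, those of replicate 2 in the Apoe-/- groups and of replicate 3 in the DKO groups.

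Levels within the family covered a wide range. Tyrobp was the most abundant member, with a median of 1065 RPKM over the 18 libraries, and by its mean it ranked 24 of 18668. Trem2 had a median of 433 RPKM and ranked 128. Hcst followed with a median of 6.17 RPKM, Trem1 with 1.93, Trem3 with 1.18, Treml1 with 0.310 and Treml2 with 0.160. The order Tyrobp, Trem2, Hcst, Trem1, Trem3 held in 18 of 18 libraries, whereas Trem3 was above Treml1 in 17 and Treml1 above Treml2 in 17. Trem2 made up 98.2% ± 0.19 (SD, n = 3) of the summed RPKM of the 6 receptors in untreated Apoe-/- cells. With oxLDL 60 its share in Apoe-/- was 97.8% ± 0.056. In DKO cells, which lack Treml4, it was 98.9% ± 0.076 untreated and 99.4% ± 0.036 with oxLDL 60. The low members rested on few reads, 11 to 40 per library for Treml1, 24 to 51 for Treml2 and 28 to 84 for Trem3, so that counting error alone was 30.2% of the lowest Treml1 value. Trem1 had 154 to 411 reads and Hcst 88 to 173.

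**Figure D1:**
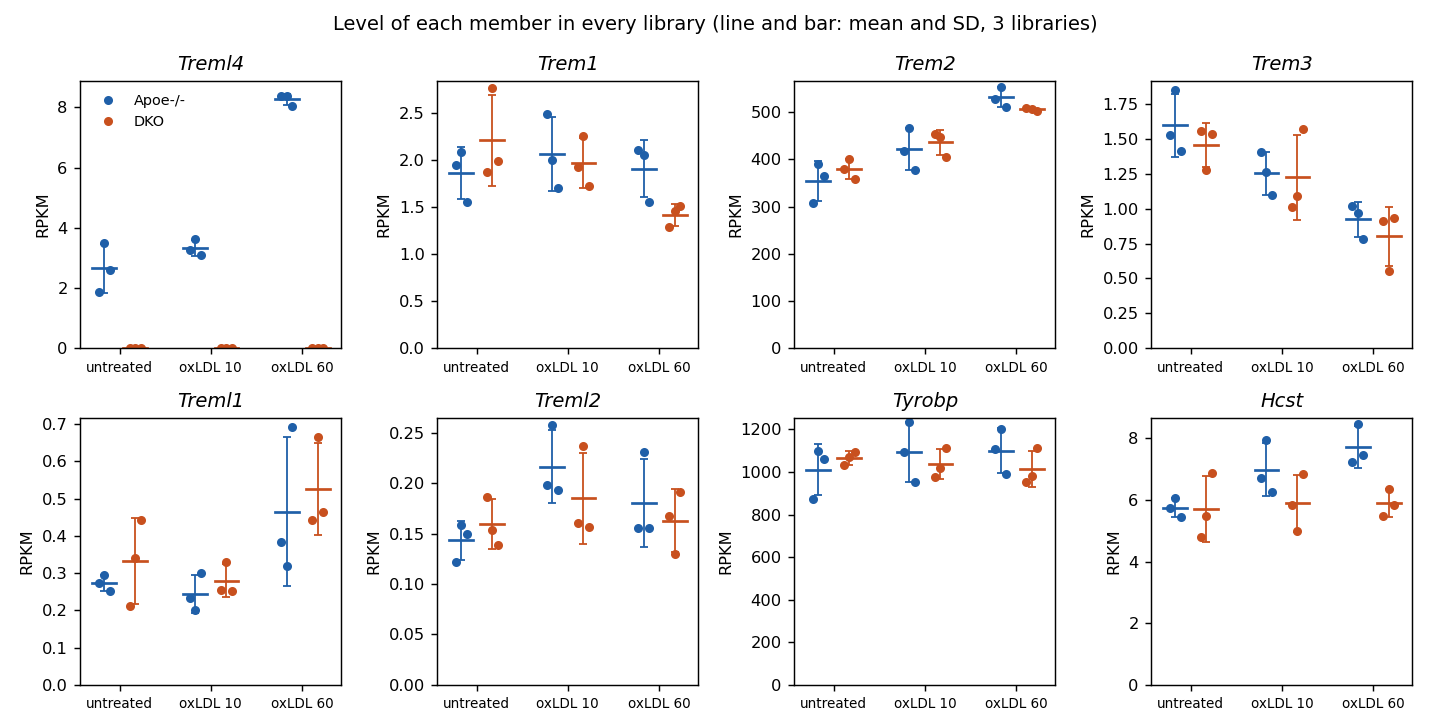
RPKM of each member in every library, by treatment and genotype, with the mean as a line and the SD as a bar (3 libraries a group) and every axis starting at 0. Treml4 is at 0 in 8 of 9 DKO libraries, Trem2 climbs and Trem3 declines with oxLDL in both genotypes, and Tyrobp lies between 874 and 1237 RPKM throughout.

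Treml4, the deleted gene, separated the genotypes in every library. Untreated Apoe-/- replicates 1 to 3 had 1.86, 3.48 and 2.60 RPKM, the oxLDL 10 replicates 3.27, 3.61 and 3.08 RPKM and the oxLDL 60 replicates 8.36, 8.39 and 8.06 RPKM. In DKO cells it was listed at 0 in 8 of 9 libraries and at 0.012 RPKM, equal to 1 read, in untreated replicate 2. The lowest Apoe-/- library was therefore far above every DKO library, and the labels matched the genotype throughout.

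The depth limits how large the difference can be shown to be. With oxLDL 60 the Apoe-/- libraries held 2052 Treml4 reads against 0 in DKO, and against the level that 3 reads would give in the shallowest DKO library Treml4 was at least 191-fold lower. With oxLDL 10 there were 760 reads against 0, at least 79.4-fold lower by the same limit. Untreated cells held 607 reads against 1, a ratio per depth of 611 with an exact 95% interval of 109 to 24188. The limits with oxLDL and the untreated ratio are unlike measures and cannot be ranked against each other. All of them cover counting error only.

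oxLDL 60 raised Treml4 in Apoe-/- cells from 2.65 ± 0.81 RPKM (SD, n = 3) to 8.27 ± 0.18, and all 3 treated libraries were above all 3 untreated ones. The log2 fold change was 1.65 (SE 0.16, limma adjusted p = 5.27e-07) on log2(RPKM + 0.1), the scale of all fold changes here. A gene was called when the adjusted p over all genes tested was under 0.05 and the fold change at least 1.4. In this bulk RNA, a higher share of cells with Treml4 and more Treml4 RNA per cell cannot be told apart. With oxLDL 10 Treml4 averaged 3.32 ± 0.27 RPKM, a log2 difference of 0.35 from untreated (SE 0.16, limma adjusted p = 0.197), and the libraries of these groups overlapped. Without untreated replicate 2, the highest untreated library, that difference was 0.57 and was called (adjusted p = 0.034), and without untreated replicate 1, the lowest, it was 0.13 (adjusted p = 0.656). From oxLDL 10 to oxLDL 60 the log2 fold change was 1.29 (SE 0.16, adjusted p = 2.98e-05), again with no overlap. An absence of overlap with oxLDL 60, in either direction, held for 40.7% of genes against untreated and 30.5% against oxLDL 10.

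Among the 8 members, 3 were called between oxLDL 60 and untreated in Apoe-/- cells, Treml4 and Trem2 higher and Trem3 lower. Of all genes tested 13.9% were called in that comparison, 7.13% higher and 6.78% lower. In DKO cells 2 of 8 were called, Trem1 and Trem3, both lower, against 12.2% of all genes and 7.31% called lower. With oxLDL 10 none of the 8 was called by limma in either genotype, where 2.79% of genes were called in Apoe-/- and 2.26% in DKO, and at an unadjusted p under 0.05 there were 3 members in Apoe-/- and 1 in DKO, against 22.4% and 13.2% of all genes. From oxLDL 10 to oxLDL 60 there was 1 member called in each genotype, Treml4 in Apoe-/- (6.46% of all genes) and Trem3 in DKO (5.66%). With the replicate number as a block each of these last counts was 2, with Treml1 added.

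**Figure D2:**
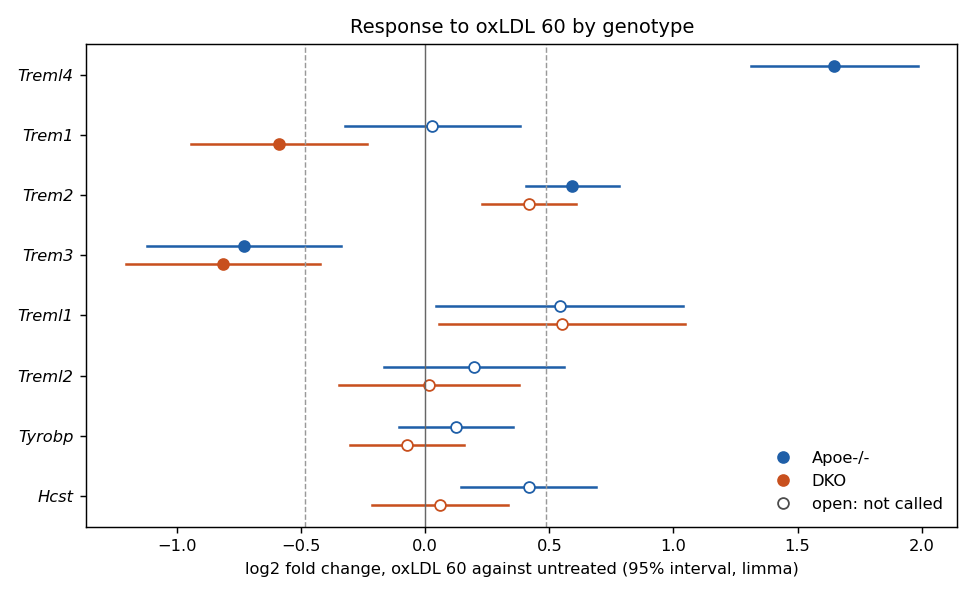
Log2 fold change of each member between oxLDL 60 and untreated cells in Apoe-/- (blue) and DKO (orange), with the 95% interval from limma, dashed lines at a fold change of 1.4, and filled points where the member was called. Treml4 is not drawn for DKO, Trem2 lies to the right and Trem3 to the left of 0 in both genotypes, and Trem1 is near 0 in Apoe-/- and at -0.59 in DKO.

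Trem2, the lipid-sensing receptor, was the abundant member that responded. Untreated Apoe-/- libraries held 306, 390 and 365 RPKM, those with oxLDL 10 held 418, 467 and 378 RPKM and those with oxLDL 60 held 528, 553 and 512 RPKM. DKO libraries held 379, 401 and 357 RPKM when untreated, 455, 448 and 405 RPKM with oxLDL 10 and 510, 506 and 503 RPKM with oxLDL 60. In both genotypes every library with oxLDL 60 was above every library of the other treatments, an absence of overlap that in either direction held for 40.7% of genes against untreated and 30.5% against oxLDL 10 in Apoe-/-, and for 42.6% and 33.7% in DKO. The increase from untreated to oxLDL 60 was 0.59 (SE 0.09, limma adjusted p = 7.39e-05) in Apoe-/- and was called. In DKO it was 0.42 (SE 0.09, limma adjusted p = 0.0020) and stayed under the limit of 1.4-fold. The difference between these responses was -0.18 (95% interval -0.44 to 0.09, limma adjusted p = 0.63). With oxLDL 10 the differences were 0.25 in Apoe-/- (limma adjusted p = 0.103) and 0.20 in DKO (limma adjusted p = 0.331).

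Trem3, an activating receptor of mouse monocytes and macrophages, moved in the other direction. In Apoe-/- cells it stood at 1.53, 1.85 and 1.42 RPKM untreated, 1.41, 1.26 and 1.10 RPKM with oxLDL 10 and 1.02, 0.973 and 0.781 RPKM with oxLDL 60. In DKO cells it stood at 1.56, 1.28 and 1.54 RPKM untreated, 1.02, 1.09 and 1.58 RPKM with oxLDL 10 and 0.912, 0.556 and 0.937 RPKM with oxLDL 60. The libraries with oxLDL 60 were below all untreated libraries in both genotypes, and in Apoe-/- cells the 3 treatments did not overlap. Between oxLDL 10 and untreated Apoe-/- libraries 20.5% of genes did not overlap, and between oxLDL 60 and oxLDL 10 30.5%. Between oxLDL 60 and untreated the share was 40.7% in Apoe-/- and 42.6% in DKO. The Trem3 level fell by 0.73 in log2 units (SE 0.18, limma adjusted p = 0.0062) in Apoe-/- and by 0.81 (SE 0.18, limma adjusted p = 0.0033) in DKO. Both calls were lost with a pseudocount of 1, where the log2 fold changes were -0.43 and -0.45 and fell short of the fold limit. The DKO call from oxLDL 10 to oxLDL 60, -0.56 with an adjusted p of 0.048 by limma, was lost without oxLDL 60 replicate 2 (-0.35), without oxLDL 10 replicate 3 (-0.38) and without oxLDL 10 replicate 2 (-0.63). It was also lost with median ratio scaling (-0.49, adjusted p = 0.114), without the libraries with Xist transcripts (-0.50, adjusted p = 0.134) and with only these groups fitted (adjusted p = 0.151).

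Trem1, the best studied amplifier of inflammation in the family, gave a call in DKO cells. DKO libraries held 1.87, 2.76 and 1.99 RPKM untreated, 1.92, 2.25 and 1.72 RPKM with oxLDL 10 and 1.28, 1.46 and 1.504 RPKM with oxLDL 60. Apoe-/- libraries held 1.94, 2.08 and 1.55 RPKM untreated, 2.48, 1.99 and 1.70 RPKM with oxLDL 10 and 2.10, 2.05 and 1.55 RPKM with oxLDL 60. All DKO libraries with oxLDL 60 were lower than the other DKO libraries, whereas the Apoe-/- treatments overlapped. In DKO 42.6% of all genes did not overlap between oxLDL 60 and untreated, and 33.7% between oxLDL 60 and oxLDL 10. The Trem1 level fell by 0.59 in log2 units (SE 0.17, limma adjusted p = 0.015) in DKO, and the log2 fold change was 0.03 (SE 0.17, limma adjusted p = 0.92) in Apoe-/-, or -0.03 with median ratio scaling. The DKO call was lost without untreated replicate 2, the library at 2.76 RPKM (-0.42, adjusted p = 0.088), and without oxLDL 60 replicate 1 (-0.52, adjusted p = 0.061). It was also lost with a pseudocount of 1, where the log2 fold change of -0.40 fell short of the fold limit. The difference between the responses was -0.62 (SE 0.24), with an unadjusted limma p of 0.019 and an adjusted p of 0.51, so the Trem1 response was not shown to differ between genotypes.

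Treml1 and Treml2 were expressed at the lowest levels. Treml1 held 0.275, 0.296 and 0.252 RPKM in untreated and 0.384, 0.319 and 0.692 RPKM in oxLDL 60 libraries of Apoe-/- cells, and 0.211, 0.341 and 0.443 RPKM against 0.443, 0.667 and 0.465 RPKM in DKO. The oxLDL 60 libraries were above the untreated ones in both genotypes, though in DKO the highest untreated and the lowest treated library were both at 0.443 RPKM. Such an absence of overlap, in either direction, held for 40.7% of all genes in Apoe-/- and 42.6% in DKO. The log2 fold change was 0.54 (SE 0.23, limma adjusted p = 0.094) in Apoe-/- and 0.55 (SE 0.23, limma adjusted p = 0.098) in DKO, neither of them called. With the replicate number as a block both were called, at adjusted p values of 0.036 and 0.035 by limma. Both were also called without the libraries with Xist transcripts, at 0.77 and 0.80 with an adjusted p of 0.047 in each, as was the Apoe-/- change without oxLDL 60 replicate 2 (0.73, adjusted p = 0.042) and the DKO change without untreated replicate 3 (0.74, adjusted p = 0.046). Without oxLDL 60 replicate 3, the library at 0.692 RPKM, the Apoe-/- change was 0.27 (adjusted p = 0.412), and without untreated replicate 1 the DKO change was 0.33 (adjusted p = 0.388). In the same libraries the platelet marker list summed to 1.404 to 3.21 RPKM untreated and 2.28 to 3.19 RPKM with oxLDL 60 in Apoe-/-, and to 1.99 to 2.74 and 2.70 to 3.04 RPKM in DKO, with none of its 5 tested genes called, and its part in the Treml1 values was not tested. Treml2 ranged from 0.122 to 0.258 RPKM over all libraries, and its oxLDL 60 response was 0.20 in Apoe-/- and 0.01 in DKO, with intervals of -0.16 to 0.56 and -0.35 to 0.38.

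Of the adaptors, Tyrobp, the DAP12 gene on which the activating receptors depend, stayed at a high level in all groups. It averaged 1010 ± 120 RPKM (SD, n = 3) in untreated Apoe-/- cells and 1100 ± 106 with oxLDL 60, and 1066 ± 31.3 and 1016 ± 84.7 in DKO cells. The libraries of all groups overlapped. The log2 difference was 0.13 (95% interval -0.10 to 0.36, limma adjusted p = 0.42) in Apoe-/- and -0.07 (-0.30 to 0.16, adjusted p = 0.69) in DKO, and these intervals lie within the limit of 1.4-fold.

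Hcst, the DAP10 gene, held 5.74, 6.07 and 5.44 RPKM in untreated Apoe-/- cells, 6.72, 7.95 and 6.27 RPKM with oxLDL 10 and 7.22, 8.48 and 7.46 RPKM with oxLDL 60. DKO libraries held 4.78, 5.47 and 6.86 RPKM, 5.83, 5.00 and 6.85 RPKM, and 5.46, 6.36 and 5.85 RPKM in the same order. In Apoe-/- both amounts of oxLDL lay above all untreated libraries, while the DKO treatments overlapped. An absence of overlap with untreated Apoe-/- libraries, in either direction, held for 20.5% of genes with oxLDL 10 and 40.7% with oxLDL 60. The log2 change with oxLDL 60 was 0.42 (SE 0.13, limma adjusted p = 0.021) in Apoe-/-, under the fold limit, and 0.06 (SE 0.13, limma adjusted p = 0.79) in DKO. The difference between these responses was -0.36 (95% interval -0.74 to 0.03, limma adjusted p = 0.52). Replicate 2 had the highest value of Treml4, Trem2, Treml2, Tyrobp and Hcst in all 3 Apoe-/- groups, and it is also the Apoe-/- replicate with Xist transcripts. Its fibroblast markers summed to 0.617 to 0.954 RPKM, against 7.53 to 15.1 RPKM in Apoe-/- replicates 1 and 3. The part of the fibroblast markers in these values was not tested. For Xist, fits with a term for its libraries and without them were run as alternatives.

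Because several receptors share DAP12, the balance of receptor to adaptor RNA was also compared. The ratio of Trem2 to Tyrobp RPKM was 0.350 ± 0.0051 (SD, n = 3) in untreated Apoe-/- cells, 0.386 ± 0.010 with oxLDL 10 and 0.485 ± 0.029 with oxLDL 60. In DKO cells it was 0.356 ± 0.026, 0.422 ± 0.053 and 0.501 ± 0.043. From untreated to oxLDL 60 the ratio was 1.38 times as high in Apoe-/- and 1.41 times in DKO, with no overlap of the libraries and an exact two-sided permutation p of 0.1 in each, the smallest that 3 against 3 libraries can give. The Trem2 to Tyrobp ratios of the genotypes overlapped at every treatment, with exact permutation p values of 0.9, 0.4 and 0.8. For Hcst to Tyrobp with oxLDL 60 the ratio was 0.00703 ± 0.00050 in Apoe-/- and 0.00583 ± 0.00062 in DKO. These libraries did not overlap (exact permutation p = 0.1), while those untreated and with oxLDL 10 did (exact permutation p = 0.5 and 0.2). The ratio of Treml4 to Trem2 in Apoe-/- cells rose from 0.00738 untreated to 0.0156 with oxLDL 60, 2.11 times as high (exact permutation p = 0.1). The ratio of Trem1 to Trem3 was 1.16 ± 0.095 untreated, 1.63 ± 0.12 with oxLDL 10 and 2.05 ± 0.060 with oxLDL 60 in Apoe-/- cells without overlap, and 1.55 ± 0.53, 1.68 ± 0.52 and 1.88 ± 0.65 in DKO cells, whose libraries overlapped. Ratios within a library do not depend on how the libraries were scaled to each other.

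**Figure D3:**
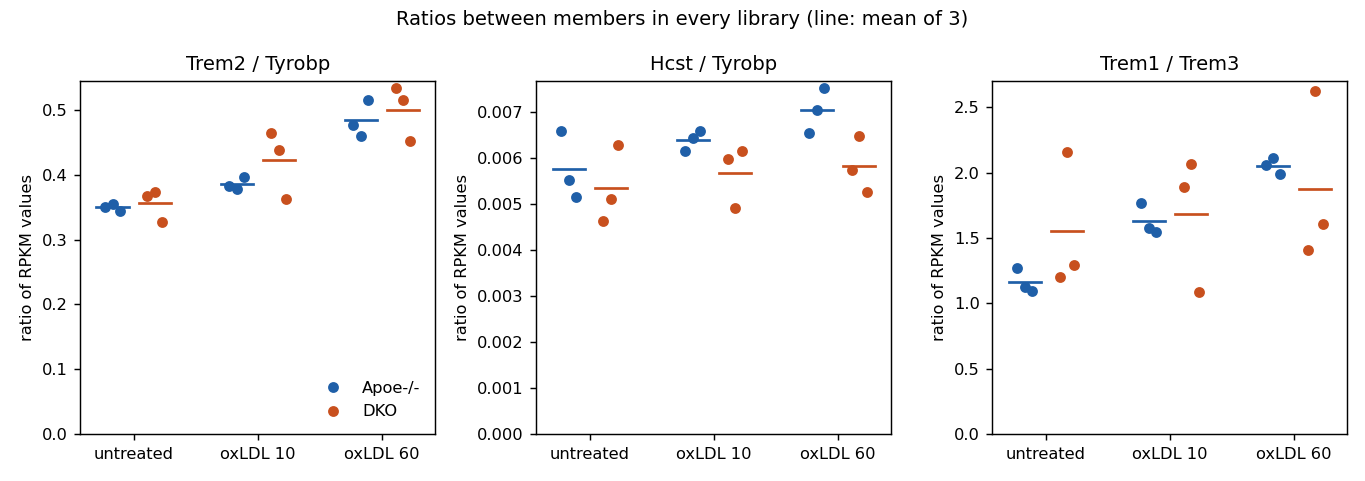
Ratio of RPKM values within each library by treatment for Apoe-/- (blue) and DKO (orange), with the mean of 3 libraries as a line and axes from 0. Trem2 relative to Tyrobp goes from 0.350 to 0.485 in Apoe-/- and from 0.356 to 0.501 in DKO, and the DKO libraries spread more widely than the Apoe-/- libraries for Trem1 relative to Trem3.

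The remaining question was whether loss of Treml4 moved its relatives. At each treatment Treml4 was the 1 member called between genotypes, where 0.21% of genes were called untreated, 0.0857% with oxLDL 10 and 0.125% with oxLDL 60. These shares stood for 27, 11 and 16 genes, which became 308, 110 and 74 without the libraries with Xist transcripts and 172, 75 and 49 with a term for them, and Treml4 was still the 1 member called. Without DKO untreated replicate 3 alone the 27 became 75, without DKO untreated replicate 1 they became 12, and without Apoe-/- oxLDL 60 replicate 3 the 16 became 8. With oxLDL 60 the libraries of 4 members did not overlap between genotypes, Treml4, Trem1, Trem2 and Hcst, each lower in DKO, against 16.5% of all genes. On the log2 scale Hcst differed by -0.38 (SE 0.13, adjusted p = 0.50 by limma), Trem1 by -0.39 (SE 0.17, adjusted p = 0.60) and Trem2 by -0.07 (SE 0.09, adjusted p = 0.87). The highest DKO library of Trem2, 510 RPKM, was close to the lowest Apoe-/- library, 512 RPKM.

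Averaged over treatments, with the correlation between same-numbered libraries of a genotype estimated, none of the other members was called. They were -0.08 for Trem1, 0.03 for Trem2 (-0.01 with median ratio scaling), -0.13 for Trem3, 0.17 for Treml1, -0.05 for Treml2, -0.03 for Tyrobp and -0.22 for Hcst, with Hcst at a limma adjusted p of 0.28 and the others at 0.69 or more. The 95% intervals were -0.11 to 0.17 for Trem2 and -0.20 to 0.13 for Tyrobp, both within the limit of 1.4-fold, and -0.20 to 0.53 for Treml1, which reaches past it. The Hcst interval, -0.41 to -0.03, excluded 0, at an unadjusted limma p of 0.028, and 14.7% of all genes had an unadjusted p under 0.05. Under the alternatives the limma adjusted p of Hcst ran from 0.024 to 0.409, and it was called in none of them. Of all genes 0.389% were called, which is 50 genes, and the number was 421 without the libraries with Xist transcripts, 191 with a term for them and 108 without the block. The response to oxLDL 60 differed between genotypes for 1 member, Treml4 (-1.70, SE 0.22, limma adjusted p = 0.012), against 0.0156% of all genes. The deleted gene could not respond in DKO cells, so this value restates its Apoe-/- response of 1.65 and is no separate result. Treml4 was listed at 0 in the DKO libraries with oxLDL 60, and the call was lost without any 1 of the Apoe-/- libraries with oxLDL 60 (adjusted p = 0.056 to 0.068) and with a pseudocount of 0.01 (-2.06, adjusted p = 0.332). For oxLDL 10 limma called no gene at all, with 246 genes and none of the members at an unadjusted p under 0.05. The median of all genes in the oxLDL 60 interaction was -0.11 and went to 0.01 with median ratio scaling, and with that scaling the interactions were -0.05 for Trem2, -0.07 for Tyrobp, -0.23 for Hcst and -0.50 for Trem1.

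Genes around the cluster were examined in the same way. Of 21 other genes with values, 10 on each side and B430306N03Rik between Treml2 and Trem2, 12 were tested and none was called in any genotype comparison. Their differences averaged over treatments ran from -0.28 to 0.20. The lowest adjusted p by limma was 0.049, for A530064D06Rik, whose start lies 112 kb before that of Treml4 and whose change stayed under the fold limit.

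**Figure D4:**
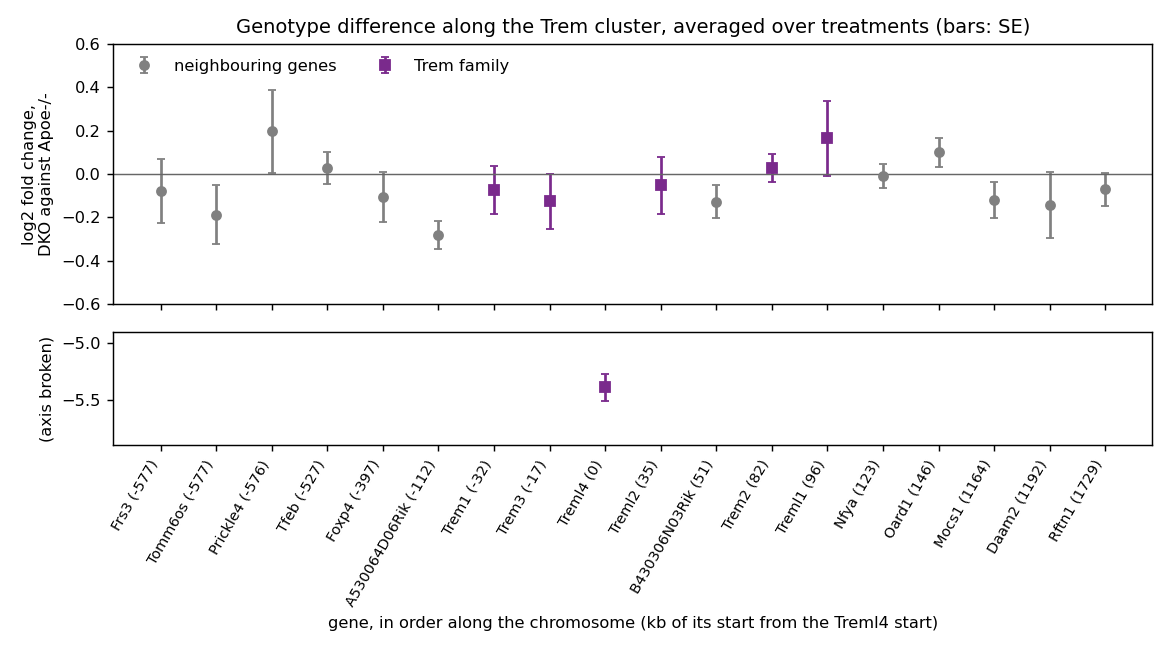
Log2 fold change of DKO against Apoe-/-, averaged over treatments, with the SE, for the 6 receptor genes (squares) and 12 tested neighbours (circles) in chromosome order, each named with the distance of its start from that of Treml4 in kb. The axis is broken between the panels, with Treml4 at -5.39 in the lower one, a value that depends on the 0.1 RPKM added, and the other genes between -0.28 and 0.20.

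Downstream of the receptors, the components of DAP12 and DAP10 signalling changed in both directions with oxLDL 60. Of 32 tested genes 4 rose and 7 fell in Apoe-/- cells, with a median log2 change of -0.09 against 0.06 for all genes, and 2 rose and 5 fell in DKO cells, with medians of -0.14 and -0.06. Of all genes 7.13% were called higher and 6.78% lower in Apoe-/-, and 4.87% higher and 7.31% lower in DKO, which also holds for the lists that follow. Lat2, an adaptor of myeloid cells, rose by 1.09 (SE 0.08) in Apoe-/- and 0.83 in DKO, and Vav3, a guanine nucleotide exchange factor, by 0.76 and 0.72. Fgr, a kinase of the Src family, whose members phosphorylate the ITAM, fell by 1.38 and 1.25, and the phosphatase gene Ptpn6, which opposes ITAM signals, fell by 0.98 and 1.09. The kinase gene Src fell by 0.87 in Apoe-/-, and its log2 change in DKO was -0.58 (limma adjusted p = 0.053). Tec rose in Apoe-/- (0.50), and its log2 change in DKO was 0.32, under the fold limit. None of the 32 was called by limma between genotypes.

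Other receptors that use DAP12, DAP10 or the Fc receptor gamma chain were divided as well, with 3 of 20 higher and 5 lower in Apoe-/- and 2 higher and 7 lower in DKO, beside 13.9% and 12.2% of all genes called in either direction. Their medians were -0.08 and -0.03. Clec4n (dectin-2) rose by 1.17 and 1.18 in the respective genotypes and Cd200r4 by 0.83 and 0.92. Clec4e (Mincle) fell by 1.78 and 1.68, Clec5a, a partner of DAP12, by 1.13 and 1.06 and Pilrb2 by 0.91 and 0.94. Fcgr3 rose in Apoe-/- (0.66), with a log2 change of 0.43 in DKO. Of 3 tested ITAM adaptors beside Tyrobp, 1 was called in Apoe-/- and 2 in DKO, all lower, with medians of -0.32 and -0.56. Of all genes 6.78% and 7.31% were called lower. Among these adaptors Cd247 fell by 0.65 in Apoe-/- and 0.57 in DKO, from group means of at most 0.13 RPKM.

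Among 20 tested ligands, partners and proteases of Trem receptors, 4 rose and 5 fell in Apoe-/- and 2 rose and 3 fell in DKO, beside the same 13.9% and 12.2% of all genes. Their medians of 0.05 and -0.07 lay next to those of all genes, 0.06 and -0.06. Lgals3, which encodes galectin-3, a ligand of Trem2, rose from 1714 to 2911 RPKM in Apoe-/- and from 1848 to 2796 RPKM in DKO. Psen2, a subunit of the gamma-secretase that cuts the Trem2 stub, rose by 0.63 in Apoe-/- and had a log2 change of 0.46 in DKO, and Cirbp, whose extracellular protein binds Trem1, rose by 0.52 in Apoe-/- with 0.25 in DKO. Ms4a6c fell by 1.07 and 1.04, Sema6d by 1.08 and 0.80, and Ms4a4a fell by 1.62 (SE 0.49) in Apoe-/- with a log2 change of -0.48 in DKO. Sema6d went from 0.285 to 0.079 RPKM in Apoe-/- and from 0.182 to 0.062 RPKM in DKO, so its log2 sizes depend on the 0.1 RPKM added. Ms4a4a was low as well, from 0.80 to 0.19 RPKM in Apoe-/-. Apoe, a Trem2 ligand deleted in all mice, still gave 1.32 ± 0.49 RPKM (SD, n = 3) in untreated Apoe-/- cells and 0.506 ± 0.23 in DKO, and averaged over treatments it was lower in DKO, at a log2 difference of -1.12 (limma adjusted p = 0.030).

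The list for Treml4 and endosomal Toll-like receptor signalling had 5 of 10 genes lower with oxLDL 60 in Apoe-/-, 4 lower in DKO and none higher, beside 6.78% and 7.31% of all genes called lower, with a median of -0.38 and -0.41. Irf7 fell by 1.48 and 1.37 and Irf5 by 0.66 and 0.72, and Tlr9 fell by 0.67 in Apoe-/- with -0.48 in DKO. Treml4 rose in the same Apoe-/- libraries. The lipid-handling list, which shares Lgals3 with the ligands, had 8 of 20 genes higher and 1 lower in Apoe-/- and 5 higher and 1 lower in DKO, with medians of 0.38 and 0.18, beside 7.13% and 4.87% of all genes called higher. The lipid exporter gene Abcg1 rose by 2.08 and 2.79, the lipid droplet coat gene Plin2 by 1.64 and 1.24 and Fabp4 by 1.63 and 1.15, while Lpl, which encodes lipoprotein lipase, fell by 0.81 and 0.68. Averaged over treatments Cst7 was lower in DKO, with a log2 difference of -0.51 (limma adjusted p = 0.017), the only gene of this list called between genotypes.

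**Figure D5:**
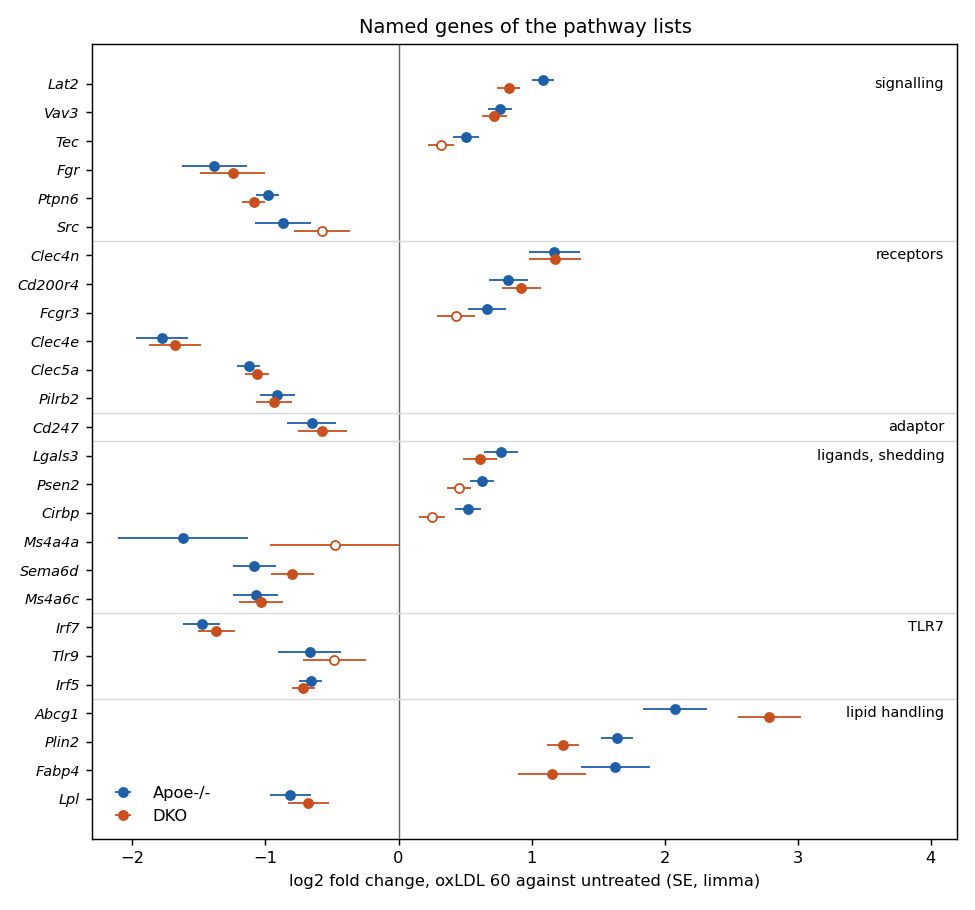
Log2 fold change with oxLDL 60 in Apoe-/- (blue) and DKO (orange), with the SE from limma, for the genes named by size of change in each pathway list, filled where called. Abcg1 at 2.08 and 2.79 lies farthest to the right, Clec4e at -1.78 and -1.68 farthest to the left among genes called in both genotypes, and no gene changes side between genotypes.

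Treml4 is known in blood from Ly6C-low monocytes, so the markers of that cell type were set beside it. Their summed level was 195 to 239 RPKM in untreated Apoe-/- libraries, 138 to 163 RPKM with oxLDL 10 and 51.6 to 59.7 RPKM with oxLDL 60, and in DKO it was 158 to 256, 103 to 175 and 39.5 to 62.2 RPKM. Of 7 tested markers 4 fell with oxLDL 60 in Apoe-/- and 5 in DKO, and Ace never reached 0.1 RPKM. Treml4 thus rose in libraries in which these markers fell, led in level by Cx3cr1. Their part in the Treml4 and Trem3 values was not tested.

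The genes whose levels followed each member most closely were listed by Pearson correlation of log2(RPKM + 0.1), as a description over libraries that share treatments and replicate numbers. Over the 9 Apoe-/- libraries and 10063 genes, Treml4 was followed by Hk3 (r = 0.992), Ptpn1 (0.989), Sec24d (0.989), Abcc3 (0.987) and Prkar2b (0.987), while Cd36, the scavenger receptor for oxLDL, had r = 0.957 and rank 165. Over 18 libraries and 10101 genes Trem2 was followed by Mfsd12 (0.985), Vps18 (0.982), Ftl1 (0.977), Plin3 (0.977) and Lgals3 (0.974), and Trem3 by Slco4a1 (0.923), Ubald1 (0.914), Xylt2 (0.910), Ikbke (0.909) and Cx3cr1 (0.908). Tyrobp was followed by Rpl37a (0.939), Eef1a1 (0.937), Uqcrh (0.925), Fis1 (0.919) and Pfdn5 (0.913), genes of the translation and mitochondrial machinery apart from the last, a chaperone subunit. Hcst was followed most closely by Rpph1 (0.819), Trem1 by Kdm8 (0.786), Treml1 by Tcp11l1 (0.795) and Treml2 by Ube2q2 (0.869).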

How the data were processed

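RNA of 18 cultures was sequenced from total RNA, and the authors deposited RPKM values per gene symbol in 1 table. The submitters' processing notes name STAR and the build mm10. The counting tool, its version and its strand setting for these libraries are not given in the sources used here, and the study's methods name several packages for differing data. The sequencing lines of the labels name different instruments. The table gives no counts. The depth and the reads behind a member were worked out from the steps of its RPKM values and are estimates, except that values came out whole within 0.008 reads for the low members. Of its symbols, 24 had been turned into dates, and they stayed as listed.

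Fold changes were computed from log2(RPKM + 0.1) with limma 3.58.1 in R 4.3.3 (lmFit and eBayes with trend), with 6 group means over all 18 libraries, on genes that reached 0.1 RPKM in 3 libraries or more, and adjusted by Benjamini-Hochberg over 12838 genes. The limits of 0.05 and 1.4-fold follow the study's methods. The genotype difference averaged over treatments used duplicateCorrelation with genotype and replicate number as block (consensus correlation 0.295). Libraries of 1 genotype that share a number deviated together in 18 of 18 pairs (correlation 0.18 to 0.69, median 0.405, against a median of -0.35 for other numbers). Between genotypes same-numbered libraries did not (median -0.17 over 27 pairs). Numbers were therefore taken to pair libraries within a genotype in the averaged fit and, as an alternative, in the oxLDL comparisons. The other main fits and the ratio tests did not use this pairing. The fit was tested on simulated data.

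RPKM is scaled to the mapped reads of each library, so a few abundant genes can shift all others. Median ratio scaling was therefore run as an alternative. Further alternatives were other pseudocounts and filters, a term for or removal of libraries with Xist transcripts, a replicate block and leaving out each library. Coordinates are from GENCODE M21, promoters from RefSeq. Named were all members, up to 3 genes higher and 3 lower of each other list by size of change with oxLDL 60 in Apoe-/-, any list gene called between genotypes, Cd36, and the 5 genes most correlated with each member. Some genes of the lists are not reported here. The members, lists and rules were chosen with earlier results of these data known.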

Additional observations from a re-analysis of the deposited data

Results flagged for a closer look

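The response to oxLDL 60 differed between genotypes for Treml4, by a test of the interaction in limma, with a log2 difference of -1.70 (SE 0.22, adjusted p = 0.012). The deleted gene was listed at 0 in all 3 DKO libraries with oxLDL 60 and could not respond there. The value therefore restates the Apoe-/- response of 1.65, and its size depends on the 0.1 RPKM added before the logarithm. Groups of 3 libraries were not tested for a library far from the others.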

How the results depend on the processing

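Of 1019 values of 56 member results under the alternatives, 959 kept their direction and their side of the threshold. The values on the other side of 0 were all between -0.21 and 0.13. With median ratio scaling these were Trem1 with oxLDL 60 in Apoe-/- (-0.029), the Trem3 interaction with oxLDL 60 (0.031) and Trem2 between genotypes averaged over treatments (-0.014). Without the libraries with Xist transcripts they were Treml2 with oxLDL 60 in DKO (-0.12) and, averaged over treatments, Trem1 (0.0020) and Treml2 (0.052). Leaving out 1 library gave ranges that crossed 0 for Trem1 with oxLDL 60 in Apoe-/- (-0.088 to 0.16), for Treml2 (-0.063 to 0.11) and Hcst (-0.058 to 0.20) with oxLDL 60 in DKO, between genotypes with oxLDL 60 for Trem3 (-0.32 to 0.0072), Treml1 (-0.0043 to 0.45) and Treml2 (-0.17 to 0.033), for the oxLDL 60 interaction of Trem3 (-0.20 to 0.13) and Treml1 (-0.21 to 0.28), and for Trem2 averaged over treatments (-0.0029 to 0.048). The cause was not tested.

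The number of members called moved in these cases. For oxLDL 60 against untreated it went in Apoe-/- from 3 to 2 with a pseudocount of 1 and to 4 with no limit on fold change, with the replicate block and without the libraries with Xist transcripts, and in DKO from 2 to 3 under the same 3 settings. For oxLDL 60 against oxLDL 10 in Apoe-/- it went from 1 to 2 with no limit on fold change and with the replicate block, and in DKO from 1 to 2 with the replicate block or a term for libraries with Xist transcripts and to 0 with a pseudocount of 1, with no filter on low values or without the libraries with Xist transcripts. For oxLDL 60 against untreated in DKO it went from 2 to 0 with a pseudocount of 1. For the oxLDL 60 interaction it went from 1 to 0 with a pseudocount of 0.01, with the stricter filter of 1 RPKM and when the fit held just those groups. Leaving out 1 library gave 3 to 4 members for oxLDL 60 against untreated in Apoe-/-, 0 to 1 for oxLDL 10 against untreated in Apoe-/-, 1 to 2 for oxLDL 60 against oxLDL 10 in Apoe-/-, 1 to 3 for oxLDL 60 against untreated in DKO, 0 to 1 for oxLDL 60 against oxLDL 10 in DKO, and 0 to 1 for the oxLDL 60 interaction, in which leaving out any of the Apoe-/- libraries with oxLDL 60 lost the Treml4 call (adjusted p 0.056 to 0.068). The replicate block, which pairs libraries by number, changed the call of Treml1 and of no other member among the results followed. Over all genes, the number called by limma moved most between genotypes. Untreated, with oxLDL 10 and with oxLDL 60 it went from 27, 11 and 16 to 308, 110 and 74 without the libraries with Xist transcripts, to 172, 75 and 49 with a term for them, to 13, 4 and 3 with only these groups fitted and to 82, 23 and 20 with the replicate number of both genotypes as a block. Untreated it was also 17 with no filter, 51 with no fold limit and 12 to 75 when 1 library was left out, and with oxLDL 60 it was 8 to 19 when 1 was left out. Averaged over treatments it went from 50 to 421 without the libraries with Xist transcripts, 191 with a term for them, 23 with a pseudocount of 1, 97 with no fold limit and 108 without the block. The oxLDL 60 interaction, with 2 genes, had 0 to 5. With no fold limit the oxLDL comparisons had 510 to 3873 genes, against 290 to 1786, and oxLDL 10 in DKO had 449 with the block and 185 without untreated replicate 3.

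Few reads limit Treml1, Treml2 and Trem3.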
